A study of Mus musculus with 64 samples.

Results

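The transcriptional difference between active and resting Treg cells that express a functional, GFP-marked Foxp3 was examined in 4 of the 64 bulk RNA-seq libraries of the study, 2 of each state. The libraries were taken by title, as Active_Treg_GFP_plusFoxp3 and Resting_Treg_GFP_plusFoxp3, and no measured value entered that choice. Both groups came from spleen and lymph nodes of untreated mice of genotype Foxp3GFP, in which the Foxp3 locus produces functional Foxp3 together with GFP. They were the Foxp3-sufficient reference of an experiment of 44 libraries built on Foxp3-LSL, a reversible reporter-null allele in which Thy1.1 and a STOP cassette between loxP sites precede a Foxp3GFP reporter. Cells with that cassette transcribe the Foxp3 locus without making Foxp3 and are called Treg wannabe cells. The labels name cells of genotype Foxp3-LSLCD4-WT minusFoxp3 and cells of genotype Foxp3-LSLCD4-CreERT2 plusFoxp3, where 4-hydroxytamoxifen (4-OHT) activates a CreERT2 driven from Cd4 and removes the cassette. Both were collected in both states without treatment (day 0) and at days 3, 7, 14 and 28 of 4-OHT, with 2 libraries per group, and the untreated plusFoxp3 groups had therefore not yet been given 4-OHT. Of these groups, the untreated minusFoxp3 cells and the plusFoxp3 cells at day 28 were set against the Foxp3GFP cells. The allele and the mice differ between these groups as well as Foxp3 function, and the 3 cannot be told apart. The study sorted its other Treg populations into resting and active cells by CD44, low in the former and high in the latter, together with another surface marker, and names no separate gate for the Foxp3GFP cells. Age and sex are not given in the labels, nor whether replicates came from separate mice. The paper took the Foxp3-LSL cells from heterozygous females, which also hold Foxp3-sufficient Treg cells. It states 2 independent biological replicates per genotype and time point of that experiment, without naming the Foxp3GFP cells, whose spread may be technical. The p-values rest on a spread estimated over all 44 libraries, not on these 4 alone.

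Treg cells are CD4 T cells that restrain immune responses and depend in their development on the transcription factor Foxp3. In the lymphoid organs most of them are resting cells that recirculate through lymph nodes, which they enter with the help of the chemokine receptor CCR7 and leave through the sphingosine phosphate receptor S1PR1. On antigen and cytokine signals a part of them becomes active (effector) Treg cells, which lose these recirculation receptors, take up factors such as Blimp-1 (Prdm1), make suppressive mediators and carry receptors for inflamed or non-lymphoid tissue. Some active Treg cells enter B cell follicles and share genes with follicular helper T cells.

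The 4 libraries held 48091891 to 54728456 counted read pairs each, within the range of the 44 (35097257 to 57419138). Across 20790 genes, Pearson's r between replicates on log2 CPM (a gene's counts scaled to the total of its library) was 0.976 in resting and 0.978 in active cells, against 0.959 to 0.970 between libraries of different states. The defining Treg markers were present in every library: Foxp3 stood at 657 and 635 CPM in the resting and 734 and 817 CPM in the active libraries, compared with 46.2 to 77.0 CPM in the untreated minusFoxp3 libraries and 526 to 615 CPM in the plusFoxp3 libraries at day 28. Between the Foxp3GFP states Foxp3 did not pass the test (log2 fold change 0.24 ± 0.19 SE, edgeR adjusted p = 0.605). Cd44 serves as a check of the sort and not as a finding. It was measured at 144 and 140.4 CPM in the resting and 187 and 223 CPM in the active libraries. Both resting values lay above the 44.1 to 121 CPM of the 20 resting Foxp3-LSL libraries, minusFoxp3 and plusFoxp3. The states of the Foxp3GFP cells were less far apart in Cd44 than those of the Foxp3-LSL cells. The part of this in any comparison with the Foxp3-LSL cells was not tested.

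Markers of other cell types were present at various levels. The summed level of 12 B cell markers was 2185 and 2235 CPM in the resting and 3912 and 4022 CPM in the active libraries, nearly all of it Ighm, the immunoglobulin heavy chain constant gene. Ighm stood at 2123 and 2121 CPM in the resting and 3754 and 3902 CPM in the active libraries and was the only one of the list to pass the test (log2 fold change 0.83 ± 0.19 SE, edgeR adjusted p = 0.0107). The call of Ighm was lost whichever library was left out (edgeR adjusted p 0.0561 to 0.128). Of the other 11, none of which was called, Igkc, an immunoglobulin light chain, stood at 13.8 and 40.2 CPM in the resting and 81.1 and 39.6 CPM in the active libraries. Cd79b, a chain of the B cell receptor complex, stood at 29.1 and 36.3 CPM in the resting and 37.1 and 41.2 CPM in the active libraries, and its partner Cd79a at 3.25 and 8.49 CPM in the resting and 1.88 and 4.45 CPM in the active libraries. Of the 12 fold changes, 6 were positive and 6 negative. The sum of 16 myeloid markers was 209 and 182 CPM in the resting and 435 and 449 CPM in the active libraries, most of it Cd74, the invariant chain of MHC class II. Cd74 stood at 197 and 161 CPM in the resting and 417 and 417 CPM in the active libraries and did not pass the test. Lyz2, a macrophage lysozyme, was at 1.24 and 2.62 CPM in the resting and 3.53 and 8.55 CPM in the active libraries. The 2 CD8 T cell markers summed to 25.3 and 25.4 CPM in the resting and 18.0 and 14.5 CPM in the active libraries and 8 NK cell markers to 32.7 and 15.4 CPM in the resting and 24.5 and 17.2 CPM in the active libraries. Heat shock and dissociation stress genes summed to 7639.7 and 4568 CPM in the resting and 9221 and 4939 CPM in the active libraries, higher in replicate 1 than in replicate 2 of each state, and 0 of 17 were called (0 by DESeq2, and 0 at an unadjusted p under 0.05). Of 7 stromal and epithelial markers, Epcam was called higher, at 27.4 and 19.96 CPM in the resting and 85.8 and 87.9 CPM in the active libraries, and Pecam1 was called lower, at 124 and 139 CPM in the resting and 59.4 and 62.2 CPM in the active libraries. Eomes, lower in active cells, was the 1 called NK cell marker. The calls of Epcam, Pecam1 and Eomes were lost whichever library was left out (edgeR adjusted p of up to 0.223, 0.224 and 0.362). Of 6 erythroid markers 0 were called. Of 6 gamma delta and NKT cell markers, 3 matched no gene name under their listed symbols, and 0 of the other 3 were called. The unmatched 3 are constant genes of the gamma chain, which the files name Trgc1, Trgc2 and Trgc4. All 3 were called lower in active cells, with Trgc1 at 27.0 and 40.5 CPM in the resting and 3.74 and 4.26 CPM in the active libraries. The part of these cells or of stress in the results was not tested. In bulk RNA, fewer cells of a type and less RNA of a gene per cell cannot be told apart.

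Among the genes called between states, those listed for recirculation and quiescence were lower in active cells, effector transcription factors were higher apart from Eomes, suppressive genes were higher, and homing receptors went both ways. Of 20790 genes tested in a fit over all 44 libraries, 648 passed an edgeR adjusted p of 0.05, which is 3.12% of the genes tested. Of these, 376 (1.81%) rose and 272 (1.31%) fell in active cells, and 465 differed more than 2-fold (284 higher, 181 lower). The median log2 fold change was 1.49 among the genes that rose and -1.23 among those that fell. Without adjustment, 3045 genes had p under 0.05. With 2 libraries a side, both active libraries lay above both resting libraries in 26.3% of all genes tested and below both in 24.5%, so an absence of overlap alone says little about a gene. The count leaned on single libraries: it was 132 without active replicate 1, 471 without active replicate 2, 262 without resting replicate 1 and 152 without resting replicate 2, where the lone library was taken to vary like the other groups. Of the 648 genes, 71 were called in each of these 4 leave-one-out fits and 191 in none, while 644 kept their direction in all 4. With DESeq2, 1160 genes were called, 640 of them among the 648.

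**Figure D1:**
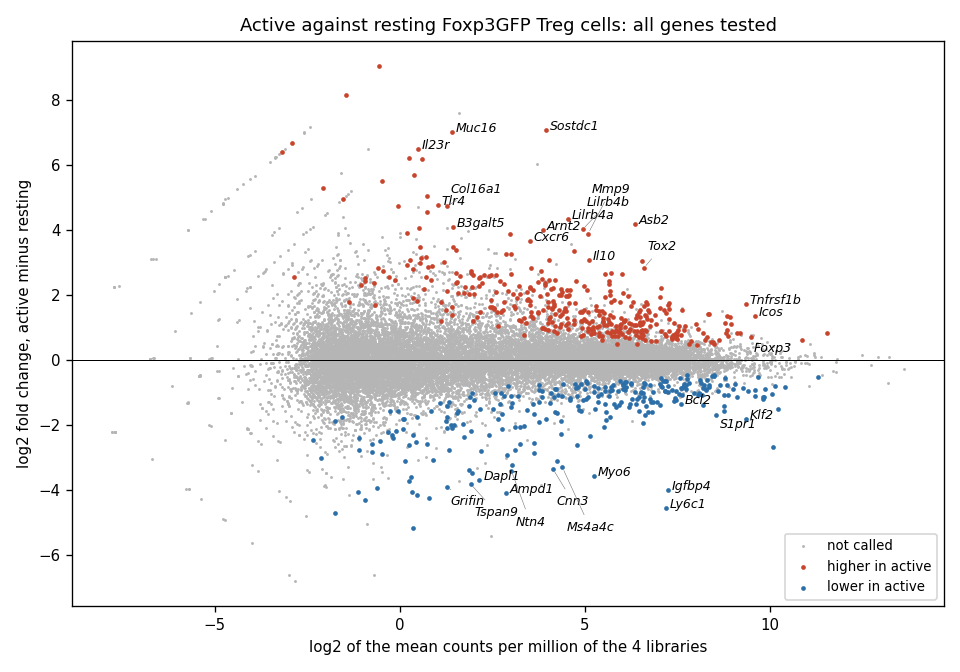
Log2 fold change between active and resting Foxp3GFP Treg cells (vertical axis) against the log2 of the mean CPM of the 4 libraries (horizontal axis), 1 point per gene for 20790 genes. The 376 genes called higher are red and the 272 called lower are blue, and Ly6c1 and Igfbp4 are abundant genes far below 0.

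Genes of recirculation and quiescence fell together. Of 26 such genes tested, 16 were lower in active cells and 0 higher, against 1.31% and 1.81% of all genes tested. Their median log2 fold change was -1.37, against 0.00095 over all genes. Klf2, the factor that keeps T cells quiescent and drives S1pr1, was measured at 922 and 1106 CPM in the resting and 256 and 333 CPM in the active libraries. It fell 3.49-fold in active cells (log2 fold change -1.80 ± 0.36 SE, edgeR adjusted p = 0.00439), and the call was lost without active replicate 1 (edgeR adjusted p = 0.131) or resting replicate 2 (0.0584). S1pr1, the receptor for exit from lymph nodes, was measured at 553 and 587 CPM in the resting and 181 and 178 CPM in the active libraries. Both active libraries lay far below both resting libraries, and S1pr1 fell 3.22-fold in active cells (log2 fold change -1.69 ± 0.25 SE, edgeR adjusted p = 0.000212), and the call held in each leave-one-out fit. Ccr7, the receptor for entry into the T cell zone, stood at 638 and 625 CPM in the resting and 237 and 246 CPM in the active libraries. It fell 2.65-fold in active cells, with both active values below both resting ones (log2 fold change -1.41 ± 0.25 SE, edgeR adjusted p = 0.00167), and the call held in each leave-one-out fit.

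The transcription factors of resting cells took part in this fall. Bach2, a repressor that holds back effector programs, stood at 85.2 and 81.9 CPM in the resting and 29.4 and 32.4 CPM in the active libraries. It fell 2.74-fold in active cells, with no overlap between the states (log2 fold change -1.46 ± 0.25 SE, edgeR adjusted p = 0.000958), and the call held in each leave-one-out fit. Lef1, a partner of beta-catenin in naive T cells, stood at 327 and 335 CPM in the resting and 162 and 170.5 CPM in the active libraries. The 2 values within each state were close, and Lef1 fell 2.01-fold in active cells (log2 fold change -1.01 ± 0.19 SE, edgeR adjusted p = 0.00194), and the call was lost without active replicate 1 (edgeR adjusted p = 0.0532). Satb1, a chromatin organiser needed for Treg development, stood at 398 and 443 CPM in the resting and 136 and 192 CPM in the active libraries. It fell 2.60-fold in active cells, with both active values below both resting ones (log2 fold change -1.38 ± 0.27 SE, edgeR adjusted p = 0.00355). The call of Satb1 was lost without active replicate 1 (edgeR adjusted p = 0.142). Foxp1 fell as well (log2 fold change -0.84, edgeR adjusted p = 0.000394), and its call held in each of the 4 leave-one-out fits. Tcf7, which shares targets with Lef1, did not pass the test: its level was 476 and 443 CPM in the resting and 480.2 and 329 CPM in the active libraries, with the active values on both sides of the resting ones (log2 fold change -0.20 ± 0.20 SE, edgeR adjusted p = 0.705). Foxo1 and Klf3 were also not called.

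Among further genes that fell, Ly6c1 and Igfbp4, for a surface and a secreted product, were abundant in resting cells and lay far below 0. The less abundant Ampd1 lay slightly farther below 0 than Igfbp4 (log2 fold change -4.10, edgeR adjusted p = 0.000494). Ly6c1 (GRCm39 chromosome 15, 74915867 to 74920679), a GPI-anchored surface protein, was measured at 250.4 and 312 CPM in the resting and 10.9 and 13.2 CPM in the active libraries. It fell 23.6-fold in active cells, with both active values below both resting ones (log2 fold change -4.56 ± 0.47 SE, edgeR adjusted p = 1.68e-06), and the call held in each leave-one-out fit. Its near-identical neighbour Ly6c2 stood at 24.2 and 28.8 CPM in the resting and 1.58 and 2.18 CPM in the active libraries without passing the test (edgeR adjusted p = 0.0785), and how reads were split between these copies is uncertain. Igfbp4 (chromosome 11, 98932070 to 98945218), a secreted binding protein of insulin-like growth factors, was measured at 219 and 354 CPM in the resting and 15.9 and 20.2 CPM in the active libraries. Neither state overlapped the other, and Igfbp4 fell 16-fold in active cells (log2 fold change -4.00 ± 0.80 SE, edgeR adjusted p = 0.0043), and the call was lost without active replicate 1 (edgeR adjusted p = 0.121). Dapl1, a marker of naive T cells, stood at 7.91 and 8.61 CPM in the resting and 0.702 and 0.582 CPM in the active libraries. It fell 13-fold in active cells, with no overlap between the states (log2 fold change -3.70 ± 0.67 SE, edgeR adjusted p = 0.00187). The call of Dapl1 was lost without active replicate 1 (edgeR adjusted p = 0.0513). Sox4, a factor of T cell development, stood at 26.1 and 17.6 CPM in the resting and 2.90 and 3.24 CPM in the active libraries. It fell 7.22-fold in active cells, with no overlap between the states (log2 fold change -2.85 ± 0.53 SE, edgeR adjusted p = 0.00217). The call of Sox4 was lost without active replicate 1 (edgeR adjusted p = 0.0723). Bcl2, which protects resting lymphocytes from death, stood at 242 and 316 CPM in the resting and 103 and 116 CPM in the active libraries. It fell 2.58-fold in active cells, with both active values below both resting ones (log2 fold change -1.37 ± 0.22 SE, edgeR adjusted p = 0.000456), and the call held in each leave-one-out fit. It was the only called gene among 16 of the BCL2 family. The count of lower calls in the list of 26 was 6 without active replicate 1, 14 without active replicate 2, 14 without resting replicate 1 and 13 without resting replicate 2.

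**Figure D2:**
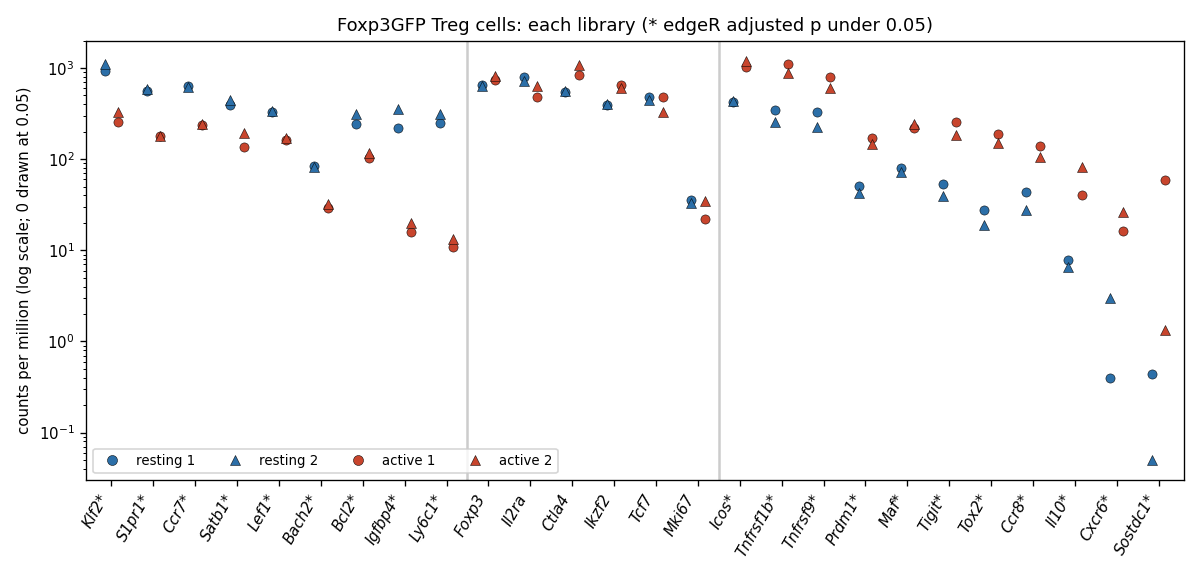
CPM (log scale, vertical axis) of 26 genes in each of the 4 libraries, resting in blue and active in red, circles for replicate 1 and triangles for replicate 2, with called genes marked by an asterisk. The 9 genes at the left are lower in both active libraries, the 6 in the middle are not called, and the 11 at the right are higher, with Sostdc1 at 59.8 CPM in active replicate 1 and 1.35 CPM in active replicate 2.

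Of 33 transcription factors of effector Treg cells tested, 13 were higher in active cells and 1 (Eomes) was lower. Over all genes tested, 1.81% were higher and 1.31% lower. The median log2 fold change of the list was 0.76. Prdm1, which encodes the effector repressor Blimp-1, was measured at 51.5 and 42.3 CPM in the resting and 169 and 145 CPM in the active libraries. It rose 3.30-fold in active cells, with no overlap between the states (log2 fold change 1.72 ± 0.34 SE, edgeR adjusted p = 0.00396). The call of Prdm1 was lost without active replicate 1 (edgeR adjusted p = 0.058) or resting replicate 2 (0.11). Maf, a factor for Il10 and for several effector T cell types, was measured at 80.5 and 73.1 CPM in the resting and 219.9 and 243 CPM in the active libraries. It rose 2.97-fold in active cells, with no overlap between the states (log2 fold change 1.57 ± 0.43 SE, edgeR adjusted p = 0.0411). The call of Maf was lost whichever library was left out (edgeR adjusted p 0.131 to 0.283). Tox2 stood at 28.0 and 19.1 CPM in the resting and 189 and 150.4 CPM in the active libraries. It rose 7.09-fold in active cells, with both active values above both resting ones (log2 fold change 2.83 ± 0.41 SE, edgeR adjusted p = 0.000148), and the call held in each leave-one-out fit.

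Further members of this list that rose were Rora (0.93), Tbx21 (2.47), Bcl6 (1.65), Nfil3 (1.34), Bhlhe40 (1.78), Ahr (1.16), Hif1a (1.10), Tox (0.76) and Nr1d1 (1.23), given here with their log2 fold changes, and the edgeR adjusted p of these 9 ran from 0.0086 to 0.0473. Tbx21, the factor of type 1 immunity, differed between the active libraries, at 7.40 and 3.64 CPM in the resting and 46.9 and 15.2 CPM in the active libraries, and its call was lost without active replicate 1 (edgeR adjusted p = 0.536), resting replicate 1 (0.0659) or resting replicate 2 (0.294). Irf4 and Batf, which act together downstream of the T cell receptor, did not pass the test, with log2 fold changes of 0.63 (edgeR adjusted p = 0.207) and 0.85 (edgeR adjusted p = 0.0566). Batf was measured at 177 and 134 CPM in the resting and 311 and 260.3 CPM in the active libraries, without overlap between the states. Gata3 stood at 227 and 215 CPM in the resting and 215 and 268 CPM in the active libraries (edgeR adjusted p = 0.822). Id2 stood at 69.4 and 86.3 CPM in the resting and 139 and 203 CPM in the active libraries (edgeR adjusted p = 0.0516). DESeq2 called Batf and Id2 higher (adjusted p = 0.00996 and 0.0101), as did edgeR with the replicate block (0.0076 and 0.0317). The list's count of higher calls was 2 without active replicate 1, 8 without active replicate 2, 5 without resting replicate 1 and 2 without resting replicate 2.

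Of 32 suppressive mediators and inhibitory receptors, 7 were called higher and 0 lower, against 1.81% and 1.31% of all genes tested. The median log2 fold change was 1.04. Il10, a cytokine that dampens inflammation, was measured at 7.84 and 6.51 CPM in the resting and 40.4 and 82.7 CPM in the active libraries. It rose 8.43-fold in active cells, with no overlap between the states (log2 fold change 3.08 ± 0.69 SE, edgeR adjusted p = 0.0103). The call of Il10 was lost without active replicate 2 (edgeR adjusted p = 0.0832), resting replicate 1 (0.0964) or resting replicate 2 (0.166). Tigit, an inhibitory receptor for nectins, was measured at 53.5 and 39.7 CPM in the resting and 258 and 182 CPM in the active libraries. It rose 4.65-fold in active cells, with both active values above both resting ones (log2 fold change 2.22 ± 0.57 SE, edgeR adjusted p = 0.0266). The call of Tigit was lost without active replicate 1 (edgeR adjusted p = 0.249), resting replicate 1 (0.126) or resting replicate 2 (0.267). Lag3, an inhibitory receptor that binds MHC class II, was measured at 9.04 and 5.50 CPM in the resting and 40.4 and 26.6 CPM in the active libraries. It rose 4.53-fold in active cells, with both active values above both resting ones (log2 fold change 2.18 ± 0.45 SE, edgeR adjusted p = 0.00592). The call of Lag3 was lost without active replicate 1 (edgeR adjusted p = 0.111) or resting replicate 2 (0.16). In all 3 the active libraries lay above the resting libraries.

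Fgl2, a secreted suppressive fibrinogen-like protein, was measured at 69.8 and 59.0 CPM in the resting and 207 and 189.9 CPM in the active libraries. It rose 3.03-fold in active cells, with both active values above both resting ones (log2 fold change 1.60 ± 0.40 SE, edgeR adjusted p = 0.0221). The call of Fgl2 was lost whichever library was left out (edgeR adjusted p 0.0561 to 0.228). Nt5e, the ectoenzyme CD73 that makes adenosine, was measured at 293 and 261 CPM in the resting and 740.3 and 487 CPM in the active libraries. It rose 2.19-fold in active cells, with no overlap between the states (log2 fold change 1.13 ± 0.27 SE, edgeR adjusted p = 0.0194). The call of Nt5e was lost without active replicate 1 (edgeR adjusted p = 0.403), resting replicate 1 (0.0946) or resting replicate 2 (0.209). Icos, a costimulatory receptor of active Treg cells, was among the most abundant, at 426 and 437 CPM in the resting and 1034 and 1208 CPM in the active libraries. It rose 2.56-fold in active cells, with no overlap between the states (log2 fold change 1.36 ± 0.37 SE, edgeR adjusted p = 0.0403). The call of Icos was lost whichever library was left out (edgeR adjusted p 0.154 to 0.241). Pdcd1, which encodes PD-1, differed between the active replicates, at 71.2 and 35.6 CPM in the resting and 313 and 106 CPM in the active libraries. It rose 3.86-fold in active cells (log2 fold change 1.95 ± 0.40 SE, edgeR adjusted p = 0.00557), and the call was lost without active replicate 1 (edgeR adjusted p = 0.439) or resting replicate 2 (0.178). Ctla4, the coinhibitory receptor central to Treg function, was at 549.8 and 554 CPM in the resting and 835 and 1069.6 CPM in the active libraries, with both active values higher, and did not pass the test (log2 fold change 0.77 ± 0.32 SE, edgeR adjusted p = 0.227). Tgfb1, Entpd1, Ebi3, Gzmb, Areg and Lrrc32 were not called by edgeR either, nor were Klrg1 and Il1rl1, receptors that mark tissue-type Treg cells. Of these, Ebi3 was measured at 10.3 and 8.08 CPM in the resting and 23.1 and 41.6 CPM in the active libraries (edgeR adjusted p = 0.0584). Itgb8, an integrin that activates TGF-beta, was at 23.6 and 19.9 CPM in the resting and 78.1 and 63.0 CPM in the active libraries (edgeR adjusted p = 0.0516). DESeq2 called both higher (adjusted p = 0.00744 for Ebi3 and 0.00719 for Itgb8), as did edgeR with the replicate block (0.0303 and 0.0351). Higher calls in the list numbered 1 without active replicate 1, 5 without active replicate 2, 2 without resting replicate 1 and 0 without resting replicate 2.

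Homing receptors moved in both directions. Of 34 tested, 7 rose and 5 fell, against 1.81% and 1.31% of all genes tested. Of the 5 that fell, 4 (among them Ccr7, S1pr1 and Klf2) are also in the list of resting genes. The fifth, S1pr4, had a log2 fold change of -0.74 (edgeR adjusted p = 0.0475). Ccr8, a receptor of Treg cells in skin and tumours, was measured at 43.3 and 27.6 CPM in the resting and 139 and 107 CPM in the active libraries. It rose 3.41-fold in active cells, with no overlap between the states (log2 fold change 1.77 ± 0.32 SE, edgeR adjusted p = 0.00194). The call of Ccr8 was lost without resting replicate 2 (edgeR adjusted p = 0.101). Cxcr6, a receptor for liver and lung, was measured at 0.402 and 2.98 CPM in the resting and 16.3 and 26.3 CPM in the active libraries. It rose 12.5-fold in active cells, with no overlap between the states (log2 fold change 3.65 ± 0.86 SE, edgeR adjusted p = 0.0157). The call of Cxcr6 was lost without active replicate 1 (edgeR adjusted p = 0.0512), active replicate 2 (0.0666) or resting replicate 1 (0.21). Gpr55, a lipid receptor, was measured at 4.71 and 3.70 CPM in the resting and 24.3 and 20.5 CPM in the active libraries. It rose 5.24-fold in active cells, with both active values above both resting ones (log2 fold change 2.39 ± 0.47 SE, edgeR adjusted p = 0.00353). The call of Gpr55 was lost without resting replicate 2 (edgeR adjusted p = 0.108). Smaller rises were those of Gpr183 (0.93), Itgal (0.91), Itgav (1.22) and P2rx7 (0.80). Chemokine receptors of inflamed tissue had higher values in the active libraries without passing the edgeR test. Ccr2 was at 48.2 and 96.4 CPM in the resting and 103 and 189.6 CPM in the active libraries (edgeR adjusted p = 0.494). Cxcr3 was at 121 and 71.9 CPM in the resting and 353 and 236 CPM in the active libraries (edgeR adjusted p = 0.18). Ccr4 was at 37.3 and 45.2 CPM in the resting and 86.1 and 98.1 CPM in the active libraries (edgeR adjusted p = 0.0555). Itgae, the integrin chain CD103 that binds epithelium, was at 199 and 231 CPM in the resting and 521 and 724 CPM in the active libraries (edgeR adjusted p = 0.0752). DESeq2 called Ccr4 and Itgae higher (adjusted p = 0.0138 and 0.0309), and edgeR with the replicate block called Ccr4 (0.0472). The list had 2 higher and 2 lower calls without active replicate 1, 5 and 3 without active replicate 2, 2 and 3 without resting replicate 1 and 2 and 2 without resting replicate 2.

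Among costimulatory TNF receptors and their adaptors, 2 of 20 rose and 0 fell, against 1.81% and 1.31% of all genes tested. Tnfrsf1b, the receptor TNFR2 that expands Treg cells, was measured at 344 and 256 CPM in the resting and 1121 and 892 CPM in the active libraries. It rose 3.31-fold in active cells, with no overlap between the states (log2 fold change 1.73 ± 0.30 SE, edgeR adjusted p = 0.00126). The call of Tnfrsf1b was lost without resting replicate 2 (edgeR adjusted p = 0.0614). Tnfrsf9, which encodes 4-1BB, was measured at 331 and 223 CPM in the resting and 796 and 599.8 CPM in the active libraries. It rose 2.48-fold in active cells, with no overlap between the states (log2 fold change 1.31 ± 0.32 SE, edgeR adjusted p = 0.0201). The call of Tnfrsf9 was lost without active replicate 1 (edgeR adjusted p = 0.274) or resting replicate 2 (0.288). Tnfrsf4 (OX40), Tnfrsf18 (GITR) and Cd27 were abundant in both states and not called. Tnfrsf4 stood at 575 and 489 CPM in the resting and 889.7 and 936 CPM in the active libraries, with both active values higher (edgeR adjusted p = 0.0931). DESeq2 called Tnfrsf4 higher (adjusted p = 0.0256), as did edgeR with the replicate block (0.0155). Among helper cytokines and their receptors, 4 of 29 rose and 0 fell, against the same shares of all genes tested. Tnfsf11, which encodes RANKL, was measured at 33.5 and 21.8 CPM in the resting and 96.6 and 94.8 CPM in the active libraries. It rose 3.41-fold in active cells, with both active values above both resting ones (log2 fold change 1.77 ± 0.22 SE, edgeR adjusted p = 3.18e-05), and the call held in each leave-one-out fit. Il23r, a receptor of inflammatory helper cells, was nearly absent from resting cells, with 3 counts over both libraries against 279 in active cells, a ratio of 98.1 (95% interval 33.2 to 479, counting error only). Il12rb1, its partner chain, and Tgfbr1 rose by 1.16 and 1.03 on the log2 scale (edgeR adjusted p = 0.0104 and 0.00916). The call of Il23r was lost without resting replicate 2 (edgeR adjusted p = 0.0799). The call of Il12rb1 was lost without active replicate 1 (edgeR adjusted p = 0.1) or resting replicate 2 (0.197), and that of Tgfbr1 was lost without active replicate 1 (edgeR adjusted p = 0.104), resting replicate 1 (0.0949) or resting replicate 2 (0.108). The higher calls were 1 without active replicate 1, 2 without active replicate 2, 2 without resting replicate 1 and 0 without resting replicate 2 among the TNF receptors. Among the helper genes they were 2 without active replicate 1, 5 without active replicate 2, 3 without resting replicate 1 and 1 without resting replicate 2.

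Among signalling genes of the T cell receptor, 3 of 31 early response genes and 4 of 30 proximal genes were called, against 3.12% of all genes tested. Of the 31 early response genes, Egr2 (log2 fold change 1.37) and Dusp6 (1.09) rose and Myc fell, and the list median was 0.065. Myc was measured at 269 and 252 CPM in the resting and 149.9 and 154 CPM in the active libraries. It fell 1.74-fold in active cells, with both active values below both resting ones (log2 fold change -0.80 ± 0.16 SE, edgeR adjusted p = 0.00537). The call of Myc was lost without active replicate 1 (edgeR adjusted p = 0.091) or resting replicate 1 (0.0638). Nr4a1, an immediate reporter of receptor signalling, was at 177 and 198 CPM in the resting and 240.4 and 215 CPM in the active libraries (log2 fold change 0.26 ± 0.70 SE, edgeR adjusted p = 0.917). The summed level of the early response list tracked the replicate number more than the state, at 13075 and 16524 CPM in the resting and 13218 and 16491 CPM in the active libraries. Of the 30 proximal genes, Zap70 (0.66), Ptpn22 (0.82) and Malt1 (1.44) rose and Grap2 (-0.83) fell. The call of Malt1 was lost without active replicate 1 (edgeR adjusted p = 0.223), resting replicate 1 (0.126) or resting replicate 2 (0.098), and Grap2's call was lost without active replicate 1 (edgeR adjusted p = 0.433) or resting replicate 2 (0.192). Egr2's call was lost without active replicate 1 (edgeR adjusted p = 0.634) or resting replicate 2 (0.322), and those of Dusp6, Zap70 and Ptpn22 were not made in any leave-one-out fit. Trac, the constant gene of the T cell receptor alpha chain, was measured at 1463 and 1479 CPM in the resting and 2335 and 2255 CPM in the active libraries. It rose 1.54-fold in active cells (log2 fold change 0.62 ± 0.10 SE, edgeR adjusted p = 0.000582), and the call held in each leave-one-out fit.

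Several follicular genes rose, and the 2 active libraries differed in several of them. Of 18 genes tested, 8 were higher in active cells and 0 lower, against 1.81% and 1.31% of all genes tested. Their median log2 fold change was 1.38. The list shares members with that of effector factors, among them Tox2 and Bcl6. Sostdc1, a secreted antagonist of BMP and WNT signals, was measured at 0.439 and 0 CPM in the resting and 59.8 and 1.35 CPM in the active libraries. Its high level was that of active replicate 1 alone, and its call (log2 fold change 7.07 ± 1.74 SE, edgeR adjusted p = 0.0212) was lost without active replicate 1 (edgeR adjusted p = 0.744), resting replicate 1 (0.0598) or resting replicate 2 (0.238). Pou2af1, a coactivator of B and follicular T cells, stood at 2.36 and 0.678 CPM in the resting and 16.9 and 1.5 CPM in the active libraries, so that active replicate 2 lay between the resting values. Its log2 fold change of 2.57 (edgeR adjusted p = 0.0266) turned to -0.057 without active replicate 1, and its call was lost without active replicate 1 (edgeR adjusted p = 0.994) or resting replicate 2 (0.331). Angptl2 stood at 18.9 and 12.6 CPM in the resting and 102 and 68.6 CPM in the active libraries. It rose 5.34-fold in active cells, with no overlap between the states (log2 fold change 2.42 ± 0.46 SE, edgeR adjusted p = 0.0029). The call of Angptl2 was lost without active replicate 1 (edgeR adjusted p = 0.0576) or resting replicate 2 (0.108).

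Bcl6, the master factor of follicular T cells, was measured at 10.6 and 6.57 CPM in the resting and 36.4 and 18.3 CPM in the active libraries and rose 3.14-fold in active cells (log2 fold change 1.65 ± 0.36 SE, edgeR adjusted p = 0.0086). The call of Bcl6 was lost without active replicate 1 (edgeR adjusted p = 0.336) or resting replicate 2 (0.2). Cxcr5, the receptor for B cell follicles, was at 96.4 and 59.9 CPM in the resting and 228 and 146 CPM in the active libraries, higher in both active libraries, and did not pass the test (log2 fold change 1.24 ± 0.42 SE, edgeR adjusted p = 0.11), although DESeq2 called it (adjusted p = 0.0408). Il21 and Ascl2 showed the same split of the active libraries without being called. Il21 was at 1.13 and 0.0969 CPM in the resting and 10.1 and 1.02 CPM in the active libraries, and Ascl2 was at 0.274 and 0.0969 CPM in the resting and 4.42 and 0.645 CPM in the active libraries. Among 17 follicular genes with a mean of at least 1 CPM in active cells, 6 (35.3%) were at least 2-fold higher in active replicate 1 than in active replicate 2 and 0 the other way, against 2.41% and 3.10% of 14251 genes. Without active replicate 1, the 8 calls of the list came down to 1, that of Tox2, with 8 without active replicate 2, 6 without resting replicate 1 and 1 without resting replicate 2.

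Genes that mark Treg cells in either state mostly did not pass the test. Of 22, Cd83 and Nt5e rose and 0 fell, against 1.81% and 1.31% of all genes tested, and the median log2 fold change was 0.23. Cd83, a surface protein of activated lymphocytes, was measured at 208 and 145 CPM in the resting and 512 and 443 CPM in the active libraries. It rose 2.67-fold in active cells, with no overlap between the states (log2 fold change 1.41 ± 0.23 SE, edgeR adjusted p = 0.000475), and the call held in each leave-one-out fit. Il2ra, the high-affinity chain of the growth factor receptor of T cells, was lower in both active libraries, at 789 and 725 CPM in the resting and 485 and 639 CPM in the active libraries (log2 fold change -0.45 ± 0.20 SE, edgeR adjusted p = 0.283). Ikzf2, which encodes Helios, was higher in both, at 396 and 407 CPM in the resting and 653 and 608 CPM in the active libraries (log2 fold change 0.63 ± 0.33 SE, edgeR adjusted p = 0.392). Neither difference passed the test, and Lrrc32 and Tnfrsf18 were not called either.

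Several programs held no called gene. As 3.12% of all genes tested were called, an absence of calls in lists of this size says little about a program. Of 40 genes of DNA replication and mitosis, 0 were called in the edgeR fit, 32 had a negative log2 fold change, and the median was -0.37. At an unadjusted p under 0.05 were 3 of the 40, and DESeq2 called 0. Mki67, a marker of cycling cells, was at 35.9 and 33.3 CPM in the resting and 22.3 and 34.6 CPM in the active libraries, and Top2a at 60.7 and 44.4 CPM in the resting and 38.2 and 41.2 CPM in the active libraries. The list's summed level was 1783 and 1529.7 CPM in the resting and 1619 and 1521 CPM in the active libraries. There was no call among 20 glycolysis genes (median 0.21), 25 cholesterol synthesis genes (median -0.30), 23 genes of common gamma chain receptors, STAT and SOCS proteins (median 0.015) or 8 Gimap GTPases (median 0.23) in the edgeR fit. In the order given, 6, 6, 3 and 3 of them had an unadjusted p under 0.05, and DESeq2 called 1, 3, 0 and 1. Of 40 interferon-stimulated genes, Gbp2 (-1.02) and Slfn1 (-0.96) fell and 0 rose. The call of Gbp2 was lost whichever library was left out (edgeR adjusted p 0.104 to 0.176), and that of Slfn1 was lost without active replicate 1 (edgeR adjusted p = 0.142). The 13 protein genes of the mitochondrial genome are listed at 0 in all 44 libraries and give no value.

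**Figure D3:**
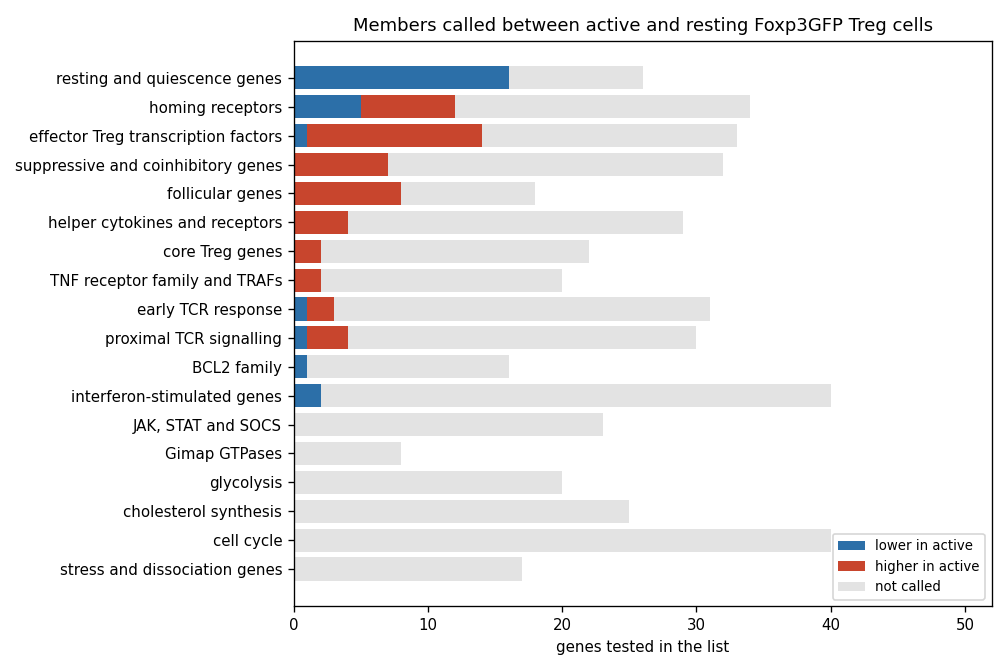
Number of genes tested in each of 18 lists (horizontal axis), split into those called lower in active cells (blue), higher (red) and not called (grey). The lists of resting genes (16 lower of 26), effector factors (13 higher of 33) and follicular genes (8 higher of 18) hold many of the calls, the homing list holds 7 higher and 5 lower of 34, and the cell cycle bar of 40 genes holds 0. Some genes are in several lists.

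Among called genes averaging 100 counts or more per library, those with the largest rises started from low resting levels. Asb2 (chromosome 12, 103287401 to 103322260), a substrate receptor of a ubiquitin ligase in helper T cells, was measured at 8.53 and 8.00 CPM in the resting and 119 and 189 CPM in the active libraries. It rose 18.3-fold in active cells, with no overlap between the states (log2 fold change 4.20 ± 0.59 SE, edgeR adjusted p = 0.000108), and the call held in each leave-one-out fit. Mmp9 (chromosome 2, 164782700 to 164797770), a secreted gelatinase, was measured at 4.20 and 4.30 CPM in the resting and 51.8 and 76.1 CPM in the active libraries. It rose 14.8-fold in active cells, with both active values above both resting ones (log2 fold change 3.89 ± 0.63 SE, edgeR adjusted p = 0.000582), and the call held in each leave-one-out fit. Arnt2 was measured at 0.987 and 2.42 CPM in the resting and 27.8 and 27.4 CPM in the active libraries. It rose 16-fold in active cells, with both active values above both resting ones (log2 fold change 4.00 ± 0.87 SE, edgeR adjusted p = 0.0085). The call of Arnt2 was lost without resting replicate 1 (edgeR adjusted p = 0.145) or resting replicate 2 (0.0724). Lilrb4a and Lilrb4b, inhibitory receptors encoded by near-identical neighbouring genes, both rose, but the split of reads between them is uncertain. Lilrb4a stood at 2.69 and 1.69 CPM in the resting and 41.0 and 48.2 CPM in the active libraries. Lilrb4b stood at 2.92 and 4.13 CPM in the resting and 41.7 and 74.3 CPM in the active libraries. Tlr4, Col16a1 and B3galt5 rose from under 1 CPM in both resting libraries, to 5.92 and 1.93 CPM, to 5.26 and 4.03 CPM and to 5.39 and 4.78 CPM. The call of Muc16, a membrane mucin, rested on active replicate 1, at 10.2 CPM against 0.333 CPM in active replicate 2, and was lost without resting replicate 1 (edgeR adjusted p = 0.133) or resting replicate 2 (0.118). The call of Tlr4 was lost without active replicate 1 (edgeR adjusted p = 0.099) or resting replicate 2 (0.137), and that of Lilrb4a was lost without resting replicate 1 (edgeR adjusted p = 0.058) or resting replicate 2 (0.126). Lilrb4b's call was lost without resting replicate 1 (edgeR adjusted p = 0.0866) or resting replicate 2 (0.0776), and the call of Col16a1 was lost without active replicate 1 (edgeR adjusted p = 0.123), resting replicate 1 (0.236) or resting replicate 2 (0.133). B3galt5 was called in none of the leave-one-out fits.

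On the falling side, Myo6 (chromosome 9, 80072313 to 80219011), a motor protein of endocytosis, was measured at 54.5 and 86.4 CPM in the resting and 4.52 and 7.49 CPM in the active libraries. It fell 11.9-fold in active cells, with both active values below both resting ones (log2 fold change -3.57 ± 0.41 SE, edgeR adjusted p = 8.94e-06), and the call held in each leave-one-out fit. Cnn3, an actin-binding protein, was measured at 36.6 and 27.4 CPM in the resting and 4.46 and 1.89 CPM in the active libraries. It fell 10.2-fold in active cells, with no overlap between the states (log2 fold change -3.35 ± 0.42 SE, edgeR adjusted p = 2.69e-05), and the call held in each leave-one-out fit. Ms4a4c was measured at 33.7 and 42.7 CPM in the resting and 5.07 and 2.72 CPM in the active libraries. It fell 9.89-fold in active cells, with no overlap between the states (log2 fold change -3.31 ± 0.46 SE, edgeR adjusted p = 9.01e-05), and the call held in each leave-one-out fit. The active libraries of all 3 lay far below the resting ones. Ampd1, an AMP deaminase, stood at 9.87 and 17.8 CPM in the resting and 0.513 and 1.12 CPM in the active libraries. Ntn4, a secreted netrin, was at 11.5 and 18.1 CPM in the resting and 1.58 and 1.23 CPM in the active libraries, and the calls of both held in each leave-one-out fit. The 3 constant genes of the gamma chain of the T cell receptor also fell. Trgc1 was measured at 27.0 and 40.5 CPM in the resting and 3.74 and 4.26 CPM in the active libraries and fell 8.53-fold in active cells (log2 fold change -3.09 ± 0.64 SE, edgeR adjusted p = 0.00588). The call of Trgc1 was lost without active replicate 1 (edgeR adjusted p = 0.133), active replicate 2 (0.0531) or resting replicate 2 (0.0682). Trgc2 and Trgc4 had log2 fold changes of -3.47 and -2.93 (edgeR adjusted p = 0.00135 and 0.00507), while Trdc, of the delta chain, was at 9.28 and 9.24 CPM in the resting and 6.21 and 6.74 CPM in the active libraries and was not called. The call of Trgc2 was lost without active replicate 1 (edgeR adjusted p = 0.075), and that of Trgc4 was lost without active replicate 1 (edgeR adjusted p = 0.185).

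Promoters were read for the genes that moved together, from RefSeq sequences on the GRCm38.p6 build, which differs from the build of the counts. Of the 376 genes that rose, 264 had an entry, and of the 272 that fell, 163. The 250 bases before each start were searched on both strands for the letters TGANTCA (bound by AP-1 factors such as Batf with Jun), CCACACCC (bound by KLF factors), TGTTTAC (bound by forkhead factors) and CTTTGAT (bound by Lef1 and Tcf7), none of which contains another. TGANTCA was in 4.66% of 343 promoters of genes that rose, 2.67% of 225 promoters of genes that fell and 4.75% of 15592 promoters of all genes tested. CCACACCC was in 4.66%, 4.00% and 3.39% of them, TGTTTAC in 2.33%, 1.33% and 2.30%, and CTTTGAT in 1.46%, 3.11% and 2.41%. The 100 bases before the start of 3 genes that rose and hold TGANTCA near it (Prdm1, Fgl2 and Tnfrsf9), and of the abundant gene Igfbp4, which fell and holds CCACACCC on the other strand, are printed 5′ to 3′ along the gene with the match in capitals. Gbp2, a named gene that fell, also holds TGANTCA, farther from its start (bases -102 to -96), and is not printed. A match is a description of letters and not a bound site, and no binding was measured.
Prdm1, chr10:44458749-44458848, minus strand: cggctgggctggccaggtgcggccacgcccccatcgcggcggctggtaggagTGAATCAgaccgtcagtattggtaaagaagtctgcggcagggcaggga
Fgl2, chr5:21372573-21372672, plus strand: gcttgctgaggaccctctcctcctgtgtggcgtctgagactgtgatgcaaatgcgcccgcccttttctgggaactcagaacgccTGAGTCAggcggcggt
Tnfrsf9, chr4:150927899-150927998, plus strand: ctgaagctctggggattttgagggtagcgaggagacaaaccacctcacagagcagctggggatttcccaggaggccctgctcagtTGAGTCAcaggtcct
Igfbp4, chr11:99041144-99041243, plus strand: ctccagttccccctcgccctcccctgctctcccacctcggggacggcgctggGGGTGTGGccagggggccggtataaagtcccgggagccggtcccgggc

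Whether the difference between states depends on Foxp3 was examined against the untreated minusFoxp3 wannabe cells, as an interaction: the log2 fold change between states in Foxp3GFP cells minus that in minusFoxp3 cells. The minusFoxp3 states differed in 2795 genes (13.4% of those tested). All 10 Foxp3-LSL pairs of states, minusFoxp3 and plusFoxp3, had more called genes than the 648 of the Foxp3GFP cells. They ran from 1101 (5.3%, plusFoxp3 at day 28, with Foxp3 restored) to 2846 (13.7%, minusFoxp3 at day 7). Over 12399 genes with a mean count of at least 100, the SD of the log2 fold change was 0.635 in Foxp3GFP cells and 0.755 to 1.10 in the Foxp3-LSL pairs. Of the 648 Foxp3GFP calls, 435 were also called in the same direction in minusFoxp3 cells, which is 67.1% of the former and 15.6% of the latter, and 13 were called in opposite directions. The interaction itself passed an edgeR adjusted p of 0.05 in 506 genes (2.43% of genes tested), 231 higher (1.11%) and 275 lower (1.32%) in Foxp3GFP cells. In 450 of the 506 the state effect was smaller in absolute size in Foxp3GFP cells, and in 281 its sign was opposite to that in minusFoxp3 cells. The count was 259 to 339 without a Foxp3GFP library (259 without active replicate 1, 339 without active replicate 2, 267 without resting replicate 1 and 316 without resting replicate 2), and 305 to 357 without a minusFoxp3 library (305 without active replicate 1 and 319 without resting replicate 2).

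The interactions touched several groups of genes. A called interaction termed higher or lower in Foxp3GFP cells is a difference of state effects and not of RNA levels. Over all genes tested, the interaction was called higher in Foxp3GFP cells in 1.11% and lower in 1.32%. Of 22 core Treg genes, 5 had a higher and 3 a lower interaction. The 5 were Ikzf2, Ikzf4, Lrrc32, Itgb8 and Swap70, and the 3 were Capg, Socs2 and Entpd1. Ikzf2, measured at 396 and 407 CPM in the resting and 653 and 608 CPM in the active libraries of Foxp3GFP cells, stood at 249 and 196 CPM in resting and 51.1 and 46.4 CPM in active minusFoxp3 libraries. Its values were lower in active than in resting minusFoxp3 cells and higher in active Foxp3GFP cells (interaction 2.82 ± 0.48 SE, edgeR adjusted p = 0.000875). The call of Ikzf2 held without each of the 8 libraries in turn. Itgb8 was at 7.52 and 6.08 CPM in resting and 0.248 and 1.10 CPM in active minusFoxp3 libraries, against 23.6 and 19.9 CPM in the resting and 78.1 and 63.0 CPM in the active libraries of Foxp3GFP cells. The Itgb8 values were lower in active than in resting minusFoxp3 libraries and higher in active than in resting Foxp3GFP libraries (interaction 4.98 ± 0.72 SE, edgeR adjusted p = 0.000161). The call of Itgb8 held without each of the 8 libraries in turn. Of 20 TNF receptor genes, 3 interactions were called, all higher in Foxp3GFP cells (Tnfrsf9, Cd27 and Fas). Tnfrsf9, which rose in Foxp3GFP cells, stood at 109 and 99.8 CPM in resting and 16.1 and 26.9 CPM in active minusFoxp3 libraries (interaction 3.59 ± 0.46 SE, edgeR adjusted p = 3.59e-05). The call of Tnfrsf9 held without each of the 8 libraries in turn. Cd27 stood at 628 and 614 CPM in the resting and 745 and 697 CPM in the active libraries of Foxp3GFP cells, and at 583 and 457 CPM in resting and 119 and 108 CPM in active minusFoxp3 libraries (interaction 2.39 ± 0.26 SE, edgeR adjusted p = 4.89e-06). The call of Cd27 held without each of the 8 libraries in turn.

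Of 26 resting genes, 5 had a called interaction, against 2.43% of all genes tested. Of these, 4 were higher in Foxp3GFP cells (Lef1, Dusp10, Actn1 and Id3) and 1 was lower (Itgb3). Lef1 fell in both kinds of cells, with 508 and 537 CPM in resting and 47.6 and 47.1 CPM in active minusFoxp3 libraries (interaction 2.46 ± 0.26 SE, edgeR adjusted p = 4.21e-06). The call of Lef1 held without each of the 8 libraries in turn. Id3, a repressor of E proteins, was at 275 and 256 CPM in the resting and 191 and 168 CPM in the active libraries of Foxp3GFP cells, and at 286 and 217 CPM in resting and 15.1 and 13.7 CPM in active minusFoxp3 libraries (interaction 3.54 ± 0.50 SE, edgeR adjusted p = 0.000105). This call held without each of the 8 libraries in turn. Myo6 and Ntn4 fell steeply in Foxp3GFP cells and differed less between the minusFoxp3 states. Myo6 stood at 96.5 and 91.8 CPM in resting and 45.7 and 53.5 CPM in active minusFoxp3 libraries (interaction -2.64 ± 0.53 SE, edgeR adjusted p = 0.0046). The call of Myo6 was lost without Foxp3GFP active replicate 1 (edgeR adjusted p = 0.0521). Ntn4 stood at 9.66 and 18.9 CPM in resting and 10.4 and 14.5 CPM in active minusFoxp3 libraries (interaction -3.21 ± 0.64 SE, edgeR adjusted p = 0.00451). The call of Ntn4 held without each of the 8 libraries in turn. Actg2, a smooth muscle actin, was at 16.1 and 14.2 CPM in the resting and 22.3 and 28.1 CPM in the active libraries of Foxp3GFP cells, and at 2.41 and 2.29 CPM in resting and 0.0902 and 0.0760 CPM in active minusFoxp3 libraries (interaction 5.50 ± 0.94 SE, edgeR adjusted p = 0.00097). Gsta4, a glutathione transferase, was lower in active cells of both kinds, at 56.2 and 46.9 CPM in the resting and 14.7 and 19.3 CPM in the active libraries of Foxp3GFP cells, and at 48.6 and 35.4 CPM in resting and 0.496 and 0.456 CPM in active minusFoxp3 libraries (interaction 4.84 ± 0.85 SE, edgeR adjusted p = 0.00122). Both calls held without each of the 8 libraries in turn. Of the gamma chain constant genes, Trgc1 and Trgc2 were higher in active minusFoxp3 cells, with log2 fold changes of 4.22 and 2.30. Their interactions were -7.31 ± 0.92 SE and -5.77 ± 0.82 SE (edgeR adjusted p = 3.5e-05 and 0.000123). That of Trgc4 was not called (edgeR adjusted p = 0.402). Leave-one-out values of these interactions were not examined.

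Called interactions of homing genes and effector factors were mostly lower in Foxp3GFP cells, and those of suppressive genes were divided. Of 34 homing genes, 6 interactions were lower in Foxp3GFP cells (among them Ccr1, Ccr2, Ccr6, Gpr15 and Itgae) and 1 higher (Cxcr5). Of 33 effector factors, 10 were lower and 3 higher, and of 32 suppressive genes 7 were lower and 5 higher. Over all genes tested, 1.32% were lower and 1.11% higher. Ccr2 was at 2.60 and 4.25 CPM in resting and 600.4 and 555 CPM in active minusFoxp3 libraries, against 48.2 to 189.6 CPM over the 4 Foxp3GFP libraries (interaction -6.40 ± 0.96 SE, edgeR adjusted p = 0.000236). The call of Ccr2 held without each of the 8 libraries in turn. Fgl2 was at 5.25 and 4.42 CPM in resting and 183 and 233 CPM in active minusFoxp3 libraries, and at 69.8 and 59.0 CPM in resting Foxp3GFP cells (interaction -3.82 ± 0.58 SE, edgeR adjusted p = 0.000244). The call of Fgl2 held without each of the 8 libraries in turn. Prdm1 showed the same arrangement, at 9.13 and 9.84 CPM in resting and 162 and 183 CPM in active minusFoxp3 libraries (interaction -2.46 ± 0.48 SE, edgeR adjusted p = 0.0035). The call of Prdm1 held without each of the 8 libraries in turn. For Ccr2, Fgl2 and Prdm1, both resting Foxp3GFP libraries had more RNA than both resting minusFoxp3 libraries, a difference that was not tested.

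For a few genes, the resting minusFoxp3 libraries held few or no counts. Gzmb, a cytotoxic protease, had 0 counts over both of those libraries and 8185 over the active ones, at least 2669-fold higher against a floor of 3 counts over the group. In Foxp3GFP cells Gzmb was measured at 15.2 and 28.3 CPM in the resting and 31.1 and 64.0 CPM in the active libraries, without passing the test (edgeR adjusted p = 0.471). Havcr2, which encodes the inhibitory receptor TIM-3, had 0 counts over the resting and 4785 over the active minusFoxp3 libraries, at least 1560-fold higher. In Foxp3GFP cells Havcr2 stood at 1.99 and 3.24 CPM in the resting and 11.4 and 10.7 CPM in the active libraries. Tigit, which rose in Foxp3GFP cells, was at 3.87 and 1.36 CPM in resting and 175 and 123 CPM in active minusFoxp3 libraries (interaction -3.61 ± 0.81 SE, edgeR adjusted p = 0.0124). The call of Tigit was lost without Foxp3GFP active replicate 2 (edgeR adjusted p = 0.0758), Foxp3GFP resting replicate 1 (0.0544), minusFoxp3 active replicate 1 (0.0512) or minusFoxp3 resting replicate 2 (0.1). Floors and ratios of counts cover counting error only.

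**Figure D4:**
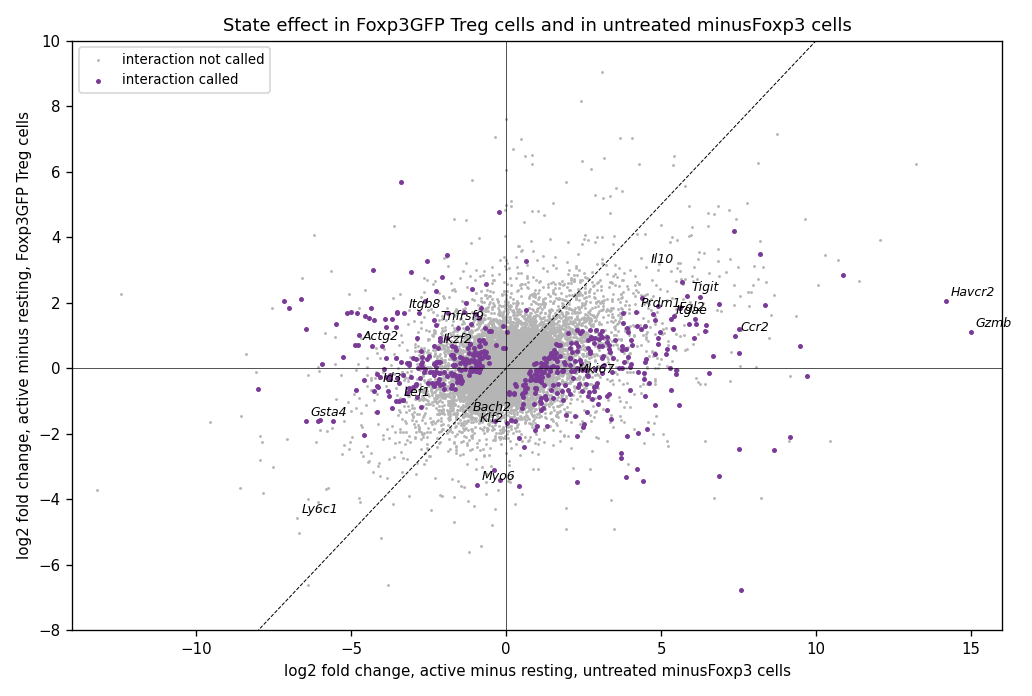
Log2 fold change between states in Foxp3GFP Treg cells (vertical axis) against that in untreated minusFoxp3 cells (horizontal axis), 1 point per gene for 20790 genes, with the 506 called interactions in purple and equal change on the dashed line. Ikzf2, Tnfrsf9 and Itgb8 lie left of the line, with a fall in minusFoxp3 cells, and Ccr2, Gzmb and Havcr2 lie to its right.

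Among genes of DNA replication and mitosis, 19 of 40 were called higher in active minusFoxp3 cells, against 7.87% of all genes tested (median log2 fold change 1.54). Of the 40, 4 had a called interaction, against 2.43% of all genes tested, all lower in Foxp3GFP cells (Mki67, Ccnb2, Bub1 and Tpx2). Mki67 was at 15.3 and 12.1 CPM in resting and 72.5 and 48.8 CPM in active minusFoxp3 libraries (interaction -2.45 ± 0.62 SE, edgeR adjusted p = 0.0279). The call of Mki67 was made only without Foxp3GFP active replicate 2 or minusFoxp3 active replicate 2, with edgeR adjusted p of up to 0.156 in the other 6 fits. Both active minusFoxp3 values of Mki67 lay above those of the active Foxp3GFP cells. Of the 8 Gimap GTPases, which serve lymphocyte survival, 5 fell in minusFoxp3 cells against 5.57% of all genes tested and 3 had a called interaction, all higher in Foxp3GFP cells. Gimap6 stood at 931 and 1004 CPM in the resting and 1095 and 1111 CPM in the active libraries of Foxp3GFP cells, with an interaction of 1.51 ± 0.17 SE (edgeR adjusted p = 4.89e-06). The call of Gimap6 held without each of the 8 libraries in turn. Bcl6 also differed (interaction 2.62 ± 0.51 SE, edgeR adjusted p = 0.00335), as did Cxcr5, at 11.4 and 12.6 CPM in resting and 5.01 and 3.17 CPM in active minusFoxp3 libraries (interaction 2.80 ± 0.60 SE, edgeR adjusted p = 0.0082). The call of Cxcr5 was lost without Foxp3GFP active replicate 1 (edgeR adjusted p = 0.0607), Foxp3GFP resting replicate 2 (0.0651) or minusFoxp3 active replicate 2 (0.0602), and that of Bcl6 held without each of the 8 libraries in turn. With Cd200, these were the 3 called interactions among 18 follicular genes, all higher in Foxp3GFP cells.

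Against plusFoxp3 cells at day 28, in which functional Foxp3 had been restored, 4 interactions passed an edgeR adjusted p of 0.05 (0.0192% of genes tested), 0 higher and 4 lower in Foxp3GFP cells, with 964 genes at an unadjusted p under 0.05 and 37 calls by DESeq2. Prr5l, which binds the kinase complex mTORC2, was measured at 5.81 and 7.11 CPM in the resting and 4.27 and 2.85 CPM in the active libraries of Foxp3GFP cells and at 5.26 and 5.19 CPM in resting and 20.8 and 24.3 CPM in active plusFoxp3 libraries. Active values were higher in plusFoxp3 cells and lower in Foxp3GFP cells (interaction -2.98 ± 0.39 SE, edgeR adjusted p = 0.000619). The call of Prr5l held without each of the 8 libraries in turn. Hbegf, an EGF receptor ligand, was at 6.43 and 8.51 CPM in the resting and 4.37 and 5.22 CPM in the active libraries of Foxp3GFP cells and at 3.37 and 4.16 CPM in resting and 17.9 and 20.1 CPM in active plusFoxp3 libraries (interaction -2.99 ± 0.53 SE, edgeR adjusted p = 0.0295). The call of Hbegf was made only without plusFoxp3 active replicate 2 or plusFoxp3 resting replicate 2, with edgeR adjusted p of up to 0.299 in the other 6 fits. Cap2, an actin regulator, was nearly constant over the Foxp3GFP libraries, at 5.18 to 5.70 CPM, and stood at 5.44 and 4.96 CPM in resting and 15.3 and 23.0 CPM in active plusFoxp3 libraries (interaction -1.97 ± 0.34 SE, edgeR adjusted p = 0.0237). Its call was made only without plusFoxp3 active replicate 1, with edgeR adjusted p of up to 0.215 in the other 7 fits. Trgc1 stood at 10.7 and 22.9 CPM in resting and 139 and 59.4 CPM in active plusFoxp3 libraries and fell in Foxp3GFP cells (interaction -5.65 ± 0.89 SE, edgeR adjusted p = 0.00914). The interaction of Trgc1 was lost without Foxp3GFP active replicate 1 (edgeR adjusted p = 0.2), Foxp3GFP active replicate 2 (0.087), Foxp3GFP resting replicate 2 (0.0631), plusFoxp3 active replicate 1 (0.0635) or plusFoxp3 resting replicate 1 (0.105). The count of 4 became 1, 1, 2 and 1 without active replicate 1, active replicate 2, resting replicate 1 and resting replicate 2 of the Foxp3GFP cells, and 2, 21, 3 and 13 without the same libraries of the day 28 cells. With 2 libraries a group, so few calls do not show that the states differed alike in both kinds of cells.

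Side by side over all 11 pairs of states, the medians of the lists placed the Foxp3GFP cells as follows. The 10 Foxp3-LSL pairs, minusFoxp3 and plusFoxp3, share no library with the Foxp3GFP pair, and no test was run on these medians. The list of resting genes had a median log2 fold change of -1.37 in Foxp3GFP cells, inside the -1.79 to -1.17 of the Foxp3-LSL pairs. Suppressive genes were likewise inside, at 1.04 against 0.97 to 1.62. Effector factors were just below the range, at 0.76 against 0.83 to 1.56. Follicular genes were above it, at 1.38 against 0.038 to 0.73, a list in which active replicate 1 stood apart. Core Treg genes had a positive median in Foxp3GFP cells alone, 0.23 against -0.82 to -0.23, and Gimap genes were at 0.23 against -0.68 to 0.031. TNF receptor genes were just above the range, at 0.14 against -0.32 to 0.12, and cholesterol genes just below it, at -0.30 against -0.26 to 0.53. Cell cycle genes spread widely over the Foxp3-LSL pairs, from -1.17 in plusFoxp3 cells at day 28 to 1.66 in minusFoxp3 cells at day 7. The Foxp3GFP cells had -0.37. Cap2 and Ccr2 were higher in active cells in all 10 Foxp3-LSL pairs, with log2 fold changes of 1.14 to 1.92 and 3.36 to 8.03. The Foxp3GFP cells had -0.089 and 1.00 and did not pass the test.

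**Figure D5:**
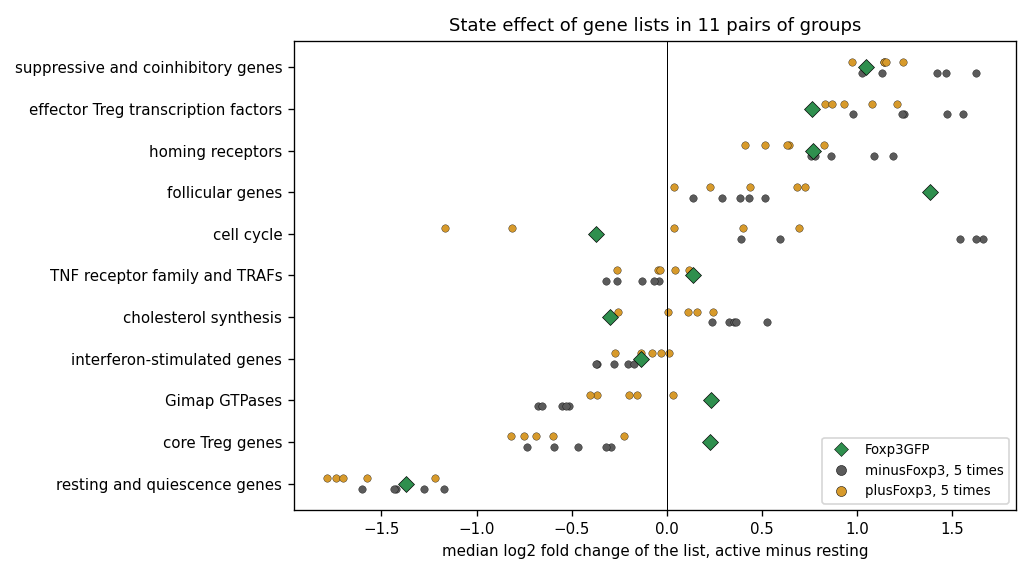
Median log2 fold change between active and resting cells (horizontal axis) of 11 gene lists in Foxp3GFP cells (green diamonds), in 5 minusFoxp3 pairs (grey circles) and in 5 plusFoxp3 pairs (orange circles). The diamonds lie right of all circles for follicular, core Treg, Gimap and TNF receptor genes, left of all circles for effector factors and cholesterol genes, and among the circles for the other lists.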

How the data were processed

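Bulk polyA RNA, amplified with a low-input SMART-Seq kit, was sequenced from Treg cells of spleen and lymph nodes. The authors deposited, per library, raw counts of read pairs per gene name, made with featureCounts 2.0.3 on GENCODE vM30 (mm39), with both mates required to align and, per the file headers, without strand, so antisense or overlapping genes cannot be told apart. The submitters' notes name Bowtie2 and the methods STAR as aligner, and a quality filter is stated only in the methods.

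Here the 44 libraries of the reversible-allele experiment were fitted jointly with edgeR 4.0.16 (R 4.3.3), with TMM factors, 1 mean for each of 22 groups and the robust quasi-likelihood test, over 20790 of 55809 gene names with a mean count of at least 10. Contrasts were active minus resting Foxp3GFP cells, and the difference of that effect from the one in untreated minusFoxp3 or day 28 plusFoxp3 cells. Genes were called at a Benjamini-Hochberg adjusted p under 0.05 over all genes tested, and the SE is the log2 fold change over the square root of F. CPM are counts over the library total. The design was tested on simulated counts, with 200 genes, none of the lowest counts, changed between the Foxp3GFP states alone. Between states, 33% of 2-fold and 82.5% of 4-fold changes were recovered. As differences from untreated minusFoxp3 cells, 8% and 69.5% were recovered, and from day 28 plusFoxp3 cells 6% and 67%. DESeq2 1.42.0, other scaling, filters, library sets, a replicate block and leave-one-out fits were tried as alternatives. Scaling by library totals and the leave-one-out fits of Foxp3-LSL libraries were added after seeing the data. All 20 libraries of the degron experiment were not analysed here, and 0 columns were left unused.

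The members and gene lists were chosen with earlier results of these data known. Named genes are a panel of Treg genes, up to 10 called genes per direction with the largest log2 fold change (mean count of at least 100, states not overlapping, no predicted or receptor segment genes), up to 4 called genes per list (mean count of at least 50) and up to 6 per direction and interaction. Genes named beyond that rule were chosen after their values were seen: Bcl6, Il21, Ascl2, Cd27, Fas, Gimap6, Cd200, Trgc1, Trgc2, Trgc4, Ly6c2 and members given by their list alone, such as Foxp1, Ahr or Itgav. Some genes that the rule names are not reported here.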

Additional observations from a re-analysis of the deposited data

Results flagged for a closer look

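The difference between active and resting cells was not the same in Foxp3GFP cells and in untreated minusFoxp3 cells for 506 genes, by the edgeR test of the difference itself. Among the named genes, 41 were in this set, and the differences of 40 of them are given here as the log2 fold change in Foxp3GFP cells minus that in minusFoxp3 cells. The state effect was higher in Foxp3GFP cells, with a call in each of the 8 fits that left out 1 library, for Actg2 5.50, Gsta4 4.84, Id3 3.54, Ighm 1.67, Ikzf2 2.82, Itgb8 4.98, Lef1 2.46, Tnfrsf9 3.59 and Trac 0.67. It was lower, with the same stability, for Cap2 -1.88, Ccr2 -6.40, Fgl2 -3.82, Hbegf -2.66, Itgae -3.79, Ntn4 -3.21, Prdm1 -2.46, Prr5l -3.87 and Rora -1.94. Calls that were lost in at least 1 of these fits were Bnip5 6.53, Cxcr5 2.80, Epcam 2.66, Fam174b 4.82, Lrrc32 2.13, Pak1 6.08, Tlr4 5.01 and Tnfsf11 1.13 on the higher side. On the lower side they were Asb2 -3.16, Ccr6 -2.14, Entpd1 -1.42, Il12rb1 -1.55, Irf4 -1.44, Ly6d -7.20, Mki67 -2.45, Myo6 -2.64, Pld4 -10.16, Sdc1 -7.06 and Tigit -3.61. For Gzmb, Havcr2 and Pvrig, whose resting minusFoxp3 libraries held 0, 0 and 1 counts, the difference was taken from the counts with a floor of 3 counts over the group at 0, and came to -10.26, -8.52 and -8.29. The values of Pld4 and Ly6d rested on active replicate 2 of the minusFoxp3 cells, where Pld4 stood at 61.2 CPM against 1.08 CPM in active replicate 1 and Ly6d at 39.5 CPM against 1.38 CPM. Siglech and Cd74, from the list of myeloid markers, stood there at 78.5 and 255 CPM against 2.37 and 45.3 CPM. Igkc was at 17.8 against 24.5 CPM in these active libraries, and at 206 CPM in resting replicate 2 against 5.38 CPM in resting replicate 1. The part of other cell types in these differences was not tested.

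Against plusFoxp3 cells at day 28, the test of the difference passed for 4 genes, with values of -5.65 for Trgc1, -1.97 for Cap2, -2.99 for Hbegf and -2.98 for Prr5l. The Foxp3GFP cells were less far apart in Cd44 than the Foxp3-LSL cells, and the part of this in these differences was not tested. Groups of 2 libraries allow no test for a library that stands apart.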

How the results depend on the processing

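The 648 calls became 1411 with no count filter, 1160 with DESeq2, 227 with only the Foxp3GFP and untreated libraries, 42 in a test against a 2-fold change, and 132 to 471 when 1 of the 4 libraries was left out. They were 667 with RLE factors, 646 with library totals, 570 with filterByExpr and 508 with the 4 libraries alone. The share called higher was 58.0%, and 65.3% with no filter, 65.2% with the Foxp3GFP and untreated libraries only and 47.4% without resting replicate 2. The 506 differences from untreated minusFoxp3 cells became 1405 with no filter, 867 with DESeq2, 316 with only the libraries compared and 254 with the Foxp3GFP and untreated libraries only. They numbered 259 to 339 without a Foxp3GFP library and 305 to 357 without a minusFoxp3 library. The 4 differences from day 28 plusFoxp3 cells became 351 with no filter, 37 with DESeq2, 0 with only the libraries compared (edgeR, 1089 at an unadjusted p under 0.05), 1 to 2 without a Foxp3GFP library and 2 to 21 without a day 28 library. The causes of these shifts were not tested.

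Replicate numbers gave no known pairing. With only 2 pairs and no label of a shared batch, they were taken as a number alone, although the deviations of same-numbered libraries correlated at r = 0.197 over 20790 genes. With the replicate block, 944 genes were called between states, including all 648, and 51.8% of the 944 were higher, and the differences numbered 650 and 4.

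For the 114 named genes, 1480 alternative values of the state difference were computed, of which 1189 kept direction and call, 233 lost the call, 50 gained it and 8 changed sign. The changes of sign all came with leaving out 1 library. Over the 4 such fits, the called log2 fold change of Pou2af1 ran from -0.057 to 3.76. Among values not called in either fit, Gata3 ran from -0.048 to 0.25, Il1rl1 from -0.44 to 0.49, Pak1 from -0.32 to 0.46, Sdc1 from -0.11 to 1.42 and Tcf7 from -0.51 to 0.050. Of the 656 and 45 values of named differences from the minusFoxp3 and day 28 plusFoxp3 cells, 531 and 29 kept direction and call and 0 changed sign. Of 69 named genes called between states, 17 were called in all 4 leave-one-out fits and 16 in none.

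With 2 libraries a group, the depth of 48091891 to 54728456 counts limits genes under a mean count of 10, which were not tested, and the spread between libraries limits the rest. All groups of 2 share 1 estimate of spread, and the lone library of a leave-one-out fit was assumed to vary like the others.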
